A study of Homo sapiens with 6 samples.

Results

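Ribosomes are built in the nucleolus, where RNA polymerase I transcribes the ribosomal RNA precursor and a large set of assembly factors fold, modify and cut it. The 44 genes described here encode such factors, together with subunits of RNA polymerase I and its transcription factors. They were chosen by name, as a list of nucleolar and RNA polymerase I genes, by a rule that uses no measured value but was drawn up with earlier results of these data known, and are 44 of 61541 genes in the count table. All 44 had a row, and all 44 passed the filter on low counts, a mean of at least 1 CPM (a count scaled to the library total) over the libraries, which left 14766 genes in the test.

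The libraries came from cells labelled A498, a line derived from a human clear cell renal carcinoma, and formed 2 groups of 3. One group carried a short hairpin RNA (shRNA) against RNF26, an E3 ubiquitin ligase of the endoplasmic reticulum membrane, and the other a control shRNA; both groups share the line and the treatment, labelled transfection infection with no vector named. The labels do not name the shRNA sequence or clones, nor whether the replicates came from cultures kept apart. The p-values therefore cover the spread among these libraries alone, part or all of which could be technical. Each library held between 16682871 and 18021718 gene counts.

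RNF26 itself had 1216, 1274 and 1175 counts in the shRNF26 libraries, against 35331, 31901 and 31928 in the shcontrol libraries. In CPM scaled by trimmed means this was 68.4, 69.2 and 68.3, against 2030, 1942 and 1945. The log2 fold change was -4.84 (SE 0.040, adjusted p = 4.27e-24 in edgeR). Its shcontrol mean of 1972 CPM lay above that of every member, the highest being NPM1 at 1085 CPM. Whether this is the usual level of RNF26 in these cells was not tested. Of 20 markers of renal epithelium and clear cell carcinoma, 7 had a mean of at least 1 CPM, and PAX2, CA9, AQP1, LRP2, CUBN and CDH16 were below it, whereas all 14 markers of squamous epithelium reached it. The squamous markers summed to 2122 to 2197 CPM in the shRNF26 libraries and 2695 to 2850 CPM in the shcontrol libraries, and the renal list to 1188 to 1212 CPM in the shRNF26 libraries and 1501 to 1529 CPM in the shcontrol libraries. Nearly all of the renal sum came from KRT8 and KRT18, keratins of simple epithelia in general, which fell. Of the other renal markers tested, ANGPTL4 and VIM also fell (log2 fold changes -2.75 and -1.37). EGLN3 and MME rose (0.76 and 0.40), and PAX8 was not called (-0.45). The squamous markers did not move as 1 either. Of the 14, 7 fell, KRT6A (-0.73), KRT17 (-0.84) and SFN (-0.96) among them. TP63 (0.17) and TRIM29 (0.49) rose, and 5 were not called, among them KRT5 (0.10). Of all tested genes 22.6% were lower and 18.9% higher. These marker levels go against the labelled line, and the name A498 rests on the labels alone. Defining markers of leukocytes (PTPRC, CD3E) and endothelium (CDH5, TEK) were at or near 0, while 1 of 6 genes of each of these lists and 2 of 8 fibroblast genes reached 1 CPM. The part of these marker differences in the results below was not tested. In such bulk samples, fewer cells of a type and less RNA per cell cannot be told apart.

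In textbook outline, box C/D ribonucleoproteins methylate ribosomal RNA and box H/ACA ribonucleoproteins convert uridine to pseudouridine, each guided by a small nucleolar RNA (snoRNA). The small-subunit processome, which contains the U3 snoRNA, assembles on the 5′ part of the precursor and gives rise to pre-40S particles, while another set of factors builds pre-60S particles. Many of these genes are known targets of the transcription factor MYC, which binds the E-box CACGTG, and their output is tied to cell growth.

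The E-box was therefore looked up in the promoters of the members. RefSeq promoter windows of GRCh38.p14, each 300 bases long, from 250 before to 50 after an annotated start, were found for 37 of the 44 members. The letters CACGTG, which read the same on both strands, were in the window of 17 of these 37 members, or 45.9%, against 12.4% of 10765 tested genes with a window and 7.26% of all 35116 windows. The sequences of 30 bases around the E-box are shown, in the direction of the gene, for the members with an E-box whose level differed in the test described next, with CACGTG in capitals. The match is a description of these letters and not of a bound site.

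GAR1 (lower in shRNF26), chr4:109815781-109815810, plus strand: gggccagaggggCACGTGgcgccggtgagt
UTP4 (lower), chr16:69132621-69132650, plus strand: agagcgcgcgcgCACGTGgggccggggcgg
NOP14 (lower), chr4:2963374-2963403, minus strand: tccgcggcccggCACGTGtcttagggtagc
PNO1 (lower), chr2:68157885-68157914, plus strand: ggtgcagctgcgCACGTGtttcagccggca
MRTO4 (lower), chr1:19251807-19251836, plus strand: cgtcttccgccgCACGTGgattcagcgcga
LYAR (lower), chr4:4290068-4290097, minus strand: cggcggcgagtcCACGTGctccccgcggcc
DDX21 (lower), chr10:68956604-68956633, plus strand: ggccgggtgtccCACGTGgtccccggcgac
UTP20 (higher in shRNF26), chr12:101280083-101280112, plus strand: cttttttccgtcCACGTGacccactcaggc
NAT10 (higher), chr11:34105602-34105631, plus strand: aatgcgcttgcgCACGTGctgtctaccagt

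Knockdown of RNF26 was accompanied by small falls in many of the nucleolar genes and by small rises in a few. In the edgeR quasi-likelihood test, at an adjusted p below 0.05, 18 of the 44 members were lower in the shRNF26 libraries, or 40.9%, against 22.6% of all tested genes. Only 4 members were higher, or 9.09%, against 18.9% of all tested genes. Together 22 members were called and 22 were not, against 41.4% of all tested genes called in either direction. The median log2 fold change was -0.10 over the members and 0.01 over all tested genes, and 31 of the 44 values were negative. The 3 shRNF26 libraries lay below all 3 shcontrol libraries in 21 members and above them in 7, against 25.9% and 24.2% of all tested genes.

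The changes were small. Just 1 of the 44 members, RRN3, had a fitted change of at least 1.5-fold, against 10.3% of all tested genes, and its counts are low, as given below. The members were measured with a median standard error of 0.054 on the log2 scale, against 0.080 over all tested genes, so smaller differences could pass for them. Summed over the members, the level was 5504, 5460 and 5528 CPM in the shRNF26 libraries and 6057, 6139 and 6217 CPM in the shcontrol libraries, which do not overlap. The sum was 10.4% lower in the shRNF26 libraries, while the same TMM-scaled sum over all tested genes was 6.11% lower. Without NPM1 and NCL, which held much of it, the sum was 3774 ± 3.77 CPM in the shRNF26 libraries and 4154 ± 5.92 CPM in the shcontrol libraries (SD, n = 3 each), or 9.15% lower, to be read against the same 6.11%. With libraries scaled by total counts in place of trimmed means (TMM), 16 members were called lower and 8 higher, against 15.4% and 30.1% of all tested genes (45.5% in either direction), the member median was -0.014, and 6 negative values, none of them called, turned positive.

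**Figure D1:**
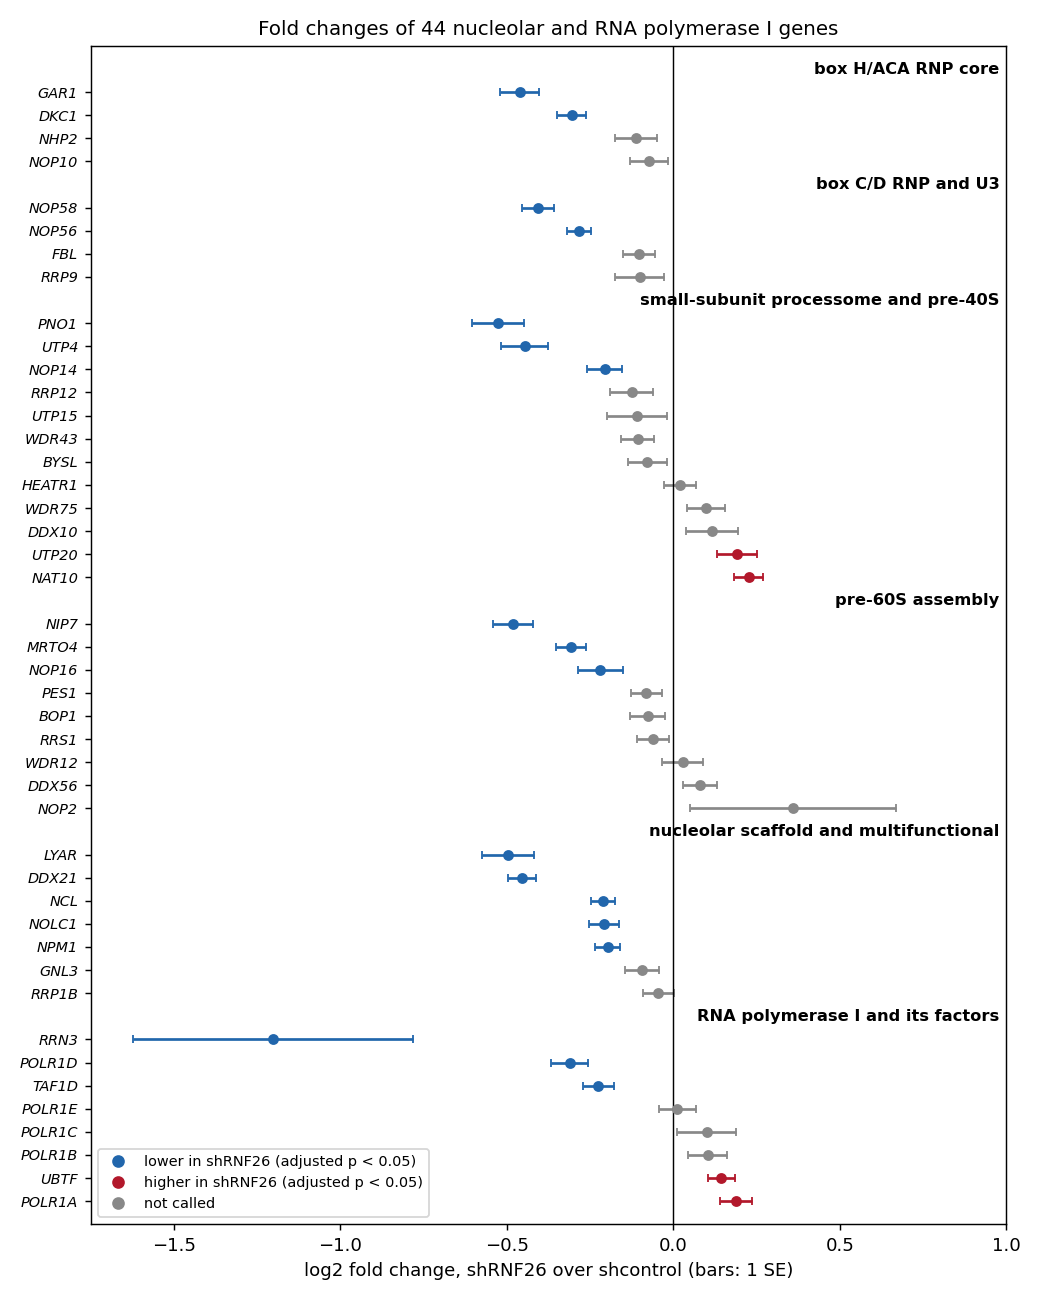
Fitted log2 fold change of each of the 44 genes (x axis, shRNF26 over shcontrol, bars 1 standard error), in 6 groups by role. Blue points are the 18 called lower, red points the 4 called higher and grey points the 22 not called; all but RRN3 and NOP2 lie between -0.53 and 0.23.

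The box H/ACA core consists of DKC1, the pseudouridine synthase dyskerin, and its partners GAR1, NHP2 and NOP10. GAR1 (ENSG00000109534), which binds the catalytic subunit late in assembly, had 38.6, 37.1 and 37.6 CPM in the shRNF26 libraries and 50.7, 50.9 and 54.3 CPM in the shcontrol libraries. The groups are well apart, with a log2 fold change of -0.46 (SE 0.059, adjusted p = 4.25e-06 in edgeR). DKC1 (ENSG00000130826) had 168, 179 and 178 CPM in the shRNF26 libraries and 217, 208 and 223 CPM in the shcontrol libraries, a log2 fold change of -0.30 (SE 0.043, adjusted p = 1.54e-05 in edgeR). NHP2 and NOP10 did not pass, and their libraries overlap between the groups. NHP2 shares 27.4% of its exon bases with RMND5B on the opposite strand. For NHP2 the 95% interval of the log2 fold change ran from -0.24 to 0.01, and for NOP10 from -0.18 to 0.04.

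Levels of these partners per length depend on the length taken, and the annotation used for counting is not known. The principal transcript has 2577 bases for DKC1, 1224 for GAR1, 865 for NHP2 and 554 for NOP10. All exon bases of these genes number 4203, 2046, 1510 and 554. Divided by the length of the principal transcript, GAR1 stood lowest of the 4, at 30.8 CPM per kilobase in the shRNF26 libraries and 42.5 CPM per kilobase in the shcontrol libraries. DKC1 had 67.8 CPM per kilobase in the shRNF26 libraries and 83.8 CPM per kilobase in the shcontrol libraries. NHP2 had 72.5 CPM per kilobase in the shRNF26 libraries and 78.4 CPM per kilobase in the shcontrol libraries. NOP10, which has the shortest transcript, stood highest, at 121 CPM per kilobase in the shRNF26 libraries and 128 CPM per kilobase in the shcontrol libraries.

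Of the 4 box C/D and U3 members, 2 fell and 2 did not pass, where 22.6% of all tested genes were lower and 18.9% higher. NOP58 (ENSG00000055044), a scaffold of the particle, had 89.9, 89.5 and 82.4 CPM in the shRNF26 libraries and 115, 117 and 114 CPM in the shcontrol libraries (edgeR log2 fold change -0.41, SE 0.048, adjusted p = 1.76e-06). Its paralogue and partner NOP56 (ENSG00000101361) had 314, 308 and 313 CPM in the shRNF26 libraries and 381, 382 and 375 CPM in the shcontrol libraries (edgeR log2 fold change -0.28, SE 0.036, adjusted p = 4.35e-06). Both fell, with a gap between the groups several times their spread. FBL, the methyltransferase fibrillarin, had 218, 223 and 195 CPM in the shRNF26 libraries and 234, 228 and 221 CPM in the shcontrol libraries. Its groups overlap and its log2 fold change of -0.10 did not pass (SE 0.048, edgeR adjusted p = 0.099). RRP9, the U3-specific protein, had a log2 fold change of -0.10 with a 95% interval from -0.24 to 0.04.

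**Figure D2:**
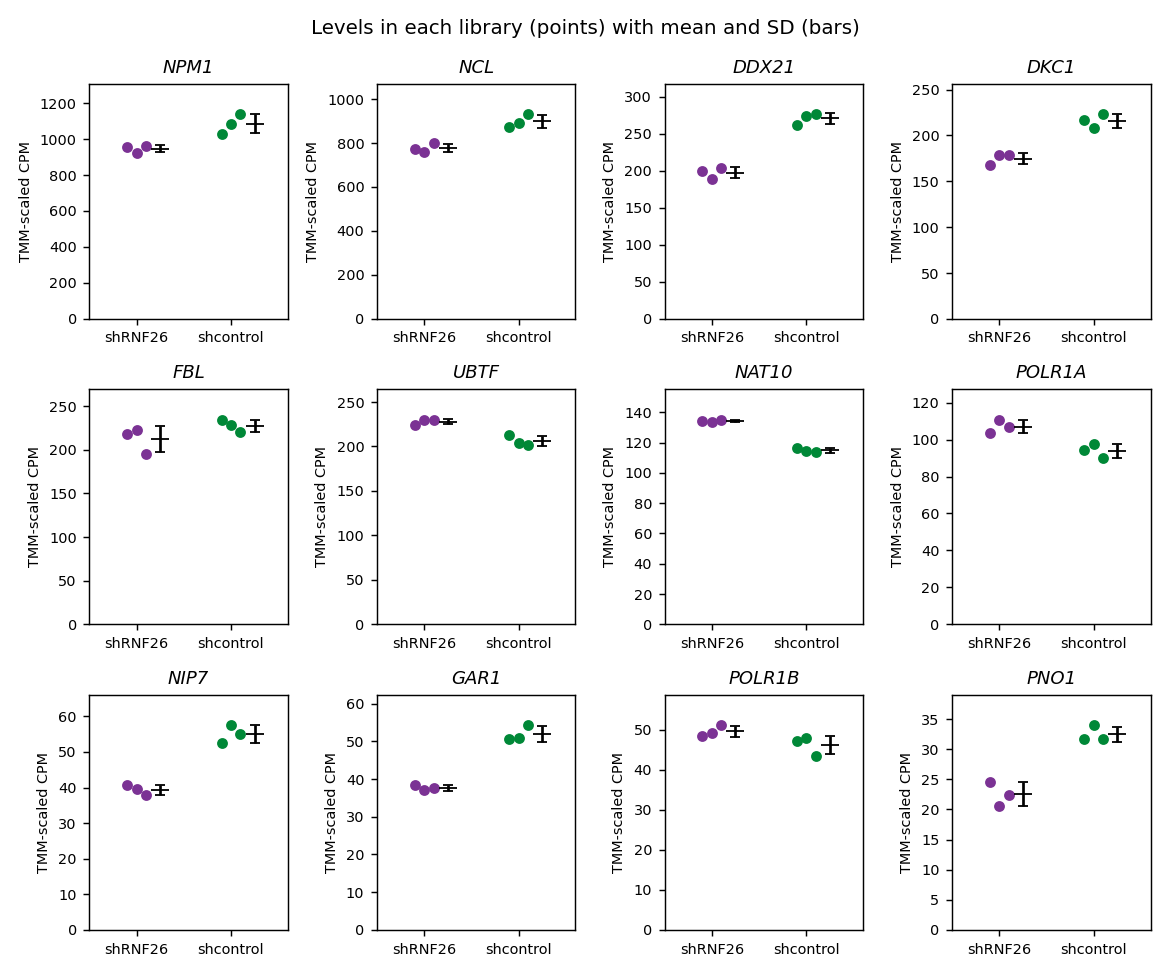
Levels of 12 members in each library, as TMM-scaled CPM on axes that start at 0, with shRNF26 left of shcontrol; black bars give mean and SD of 3 libraries. The groups of FBL overlap, while NAT10, UBTF and POLR1A lie higher in all 3 shRNF26 libraries and the lower levels of DDX21, NIP7, GAR1 and PNO1 are separated from the shcontrol libraries.

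Of the 12 small-subunit members, 3 fell, 2 rose and 7 did not pass, with a median log2 fold change of -0.09. These shares, 25% lower and 16.7% higher, are near the 22.6% and 18.9% of all tested genes. PNO1 (ENSG00000115946), an RNA-binding factor of late pre-40S particles, had 24.5, 20.6 and 22.5 CPM in the shRNF26 libraries and 31.7, 34.0 and 31.7 CPM in the shcontrol libraries. This was 30.5% lower, the largest fall in the group (edgeR log2 fold change -0.53, SE 0.079, adjusted p = 2.59e-05). PNO1 shares 10.4% of its exon bases with a gene on the opposite strand. UTP4 (ENSG00000141076), also known as cirhin, had 43.1, 41.3 and 35.4 CPM in the shRNF26 libraries and 51.0, 55.2 and 57.2 CPM in the shcontrol libraries (edgeR log2 fold change -0.45, SE 0.072, adjusted p = 5.7e-05). NOP14 (ENSG00000087269), a processome component, was 13.3% lower, at 60.3, 64.5 and 62.6 CPM in the shRNF26 libraries and 73.8, 70.1 and 72.2 CPM in the shcontrol libraries (edgeR adjusted p = 0.0040). With total-count scaling NOP14 no longer passed (log2 fold change -0.11, edgeR adjusted p = 0.082).

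NAT10 (ENSG00000135372), the acetyltransferase that forms N4-acetylcytidine in 18S ribosomal RNA, was the clearest rise. Its levels were 134, 134 and 135 CPM in the shRNF26 libraries and 117, 114 and 114 CPM in the shcontrol libraries (edgeR log2 fold change 0.23, SE 0.042, adjusted p = 2.95e-04). UTP20, a large helical-repeat protein of the processome, had 73.7, 67.4 and 79.4 CPM in the shRNF26 libraries and 61.8, 65.3 and 66.0 CPM in the shcontrol libraries (log2 fold change 0.19, edgeR adjusted p = 0.016). That call was lost without shRNF26 replicate 1 (0.19, edgeR adjusted p = 0.052), without shRNF26 replicate 3 (0.13, edgeR adjusted p = 0.10) or without shcontrol replicate 1 (0.16, edgeR adjusted p = 0.055).

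UTP4 belongs with HEATR1, UTP15, WDR43 and WDR75 to the t-UTP complex, the processome part that in human cells also acts in transcription of the ribosomal DNA. It was the sole member of the 5 that passed, and this 20% lower is near the 22.6% of all tested genes. HEATR1 had 98.1, 104 and 99.6 CPM in the shRNF26 libraries and 97.5, 103 and 96.9 CPM in the shcontrol libraries, with a log2 fold change of 0.02 and a 95% interval from -0.07 to 0.11. WDR43 had -0.11 and UTP15 -0.11, while WDR75 had 0.10, all short of the threshold. DDX10, a helicase, RRP12, an export factor, and BYSL, or bystin, a late pre-40S factor, were also not called, at 0.12, -0.12 and -0.08. HEATR1 shares exon bases with LGALS8 on the opposite strand and NOP14 with its antisense gene. The bases shared with genes on either strand are 23.15% of the exon bases of HEATR1 and 17.1% of those of NOP14. Without a known strand setting, reads in the shared bases of these genes and of PNO1 cannot be told apart from those of their partners.

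Of 9 pre-60S members, 3 fell, 0 rose and 6 did not pass. The shares, 33.3% lower and 0% higher, compare with 22.6% and 18.9% of all tested genes. NIP7 (ENSG00000132603), a late-acting nucleolar factor, had 40.6, 39.7 and 37.9 CPM in the shRNF26 libraries and 52.5, 57.5 and 54.9 CPM in the shcontrol libraries, a fall of 28.3% (edgeR log2 fold change -0.48, SE 0.060, adjusted p = 3.19e-06). MRTO4 (ENSG00000053372), a stalk-assembly factor that occupies the place of the P0 protein, had 95.5, 95.5 and 93.1 CPM in the shRNF26 libraries and 119, 117 and 115 CPM in the shcontrol libraries (edgeR log2 fold change -0.31, SE 0.045, adjusted p = 1.85e-05). NOP16 (ENSG00000048162), a nucleolar protein of early pre-60S particles, had 32.1, 29.9 and 30.1 CPM in the shRNF26 libraries and 34.5, 35.9 and 36.9 CPM in the shcontrol libraries (edgeR log2 fold change -0.22, SE 0.067, adjusted p = 0.013). The call of NOP16 was lost with total-count scaling (-0.13, edgeR adjusted p = 0.13), with upper-quartile scaling (-0.17, edgeR adjusted p = 0.053) and without shRNF26 replicate 2 (-0.20, edgeR adjusted p = 0.051). NIP7 shares 20.15% of its exon bases with COG8 on the opposite strand, and NOP16 shares 19.95% with HIGD2A and ARL10. Without a known strand setting, reads in these shared bases cannot be told apart either.

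The 3 proteins of the PeBoW complex, which is needed to process the precursor of the large subunit, were measured with narrow intervals and none passed. Of all tested genes 41.4% were called in either direction. The 95% interval of the log2 fold change was -0.17 to 0.01 for PES1, -0.18 to 0.02 for BOP1 and -0.09 to 0.15 for WDR12. RRS1, which helps to bring the 5S ribonucleoprotein into pre-60S particles, had -0.06, and the helicase DDX56 had 0.08. DDX56 became called higher with total-count scaling (0.17, edgeR adjusted p = 0.0093) and with upper-quartile scaling (0.13, edgeR adjusted p = 0.038). NOP2, the methyltransferase of 28S ribosomal RNA, had 42, 24 and 20 counts in the shRNF26 libraries and 22, 19 and 22 counts in the shcontrol libraries, far fewer than its partners, and did not pass (log2 fold change 0.36, SE 0.31). In GENCODE 29, 54.4% of its exon bases are shared with a read-through gene on the same strand, which itself held 0 or 1 count in each library. The treatment of reads that fall in both genes is not known, so the NOP2 counts say little about its level.

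The nucleolar scaffold and multifunctional proteins had the highest share of falls among the 6 role groups, 5 of 7, with 0 rises. This was 71.4% lower and 0% higher, against 22.6% and 18.9% of all tested genes. The median log2 fold change was -0.21. DDX21 (ENSG00000165732), a helicase that acts in both ribosomal DNA transcription and processing, had 199, 190 and 204 CPM in the shRNF26 libraries and 262, 274 and 276 CPM in the shcontrol libraries. Its fall of 27.0% had the smallest p of the 44 (edgeR log2 fold change -0.45, SE 0.042, adjusted p = 5.7e-08). LYAR (ENSG00000145220), a nucleolar zinc-finger protein linked to cell growth, had 29.5, 28.7 and 26.1 CPM in the shRNF26 libraries and 38.9, 43.7 and 36.3 CPM in the shcontrol libraries (edgeR log2 fold change -0.50, SE 0.078, adjusted p = 4.43e-05). Both were lower in all 3 shRNF26 libraries.

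The abundant scaffold genes also fell, with smaller fitted changes. NPM1 (ENSG00000181163), or nucleophosmin, a histone and ribosome chaperone, had 955, 924 and 960 CPM in the shRNF26 libraries and 1031, 1085 and 1138 CPM in the shcontrol libraries (edgeR log2 fold change -0.20, SE 0.038, adjusted p = 3.49e-04). NCL (ENSG00000115053), or nucleolin, had 775, 758 and 798 CPM in the shRNF26 libraries and 873, 893 and 931 CPM in the shcontrol libraries (edgeR log2 fold change -0.21, SE 0.036, adjusted p = 1.16e-04). NOLC1 (ENSG00000166197), a chaperone of snoRNA particles also called Nopp140, had 163, 168 and 180 CPM in the shRNF26 libraries and 196, 193 and 202 CPM in the shcontrol libraries (edgeR log2 fold change -0.21, SE 0.045, adjusted p = 9.59e-04). In none of these 3 genes did the groups overlap. RRP1B, a nucleolar protein that binds early pre-ribosomes, and the nucleolar GTPase GNL3, or nucleostemin, did not pass, at -0.05 and -0.09. GENCODE 29 lists 45 pseudogenes named for NPM1, so reads may have been lost to them or shared.

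Among the RNA polymerase I genes the catalytic subunit and the promoter factor UBTF rose while a small shared subunit fell. Of 8 members 2 rose, 3 fell and 3 did not pass, and the median log2 fold change of the group was 0.06 under TMM scaling. The shares, 25% higher and 37.5% lower, compare with 18.9% and 22.6% of all tested genes, and 1 of the 3 falls is RRN3, whose call was lost without shcontrol replicate 2. POLR1A (ENSG00000068654), the largest subunit, had 104, 111 and 107 CPM in the shRNF26 libraries and 94.1, 97.7 and 90.0 CPM in the shcontrol libraries (edgeR log2 fold change 0.19, SE 0.049, adjusted p = 0.0043). UBTF (ENSG00000108312), the upstream binding factor that keeps ribosomal DNA open, had 224, 230 and 230 CPM in the shRNF26 libraries and 213, 204 and 202 CPM in the shcontrol libraries (edgeR log2 fold change 0.14, SE 0.040, adjusted p = 0.0071). The rises were 14.0% and 10.5%.

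POLR1B, the second-largest subunit, had 48.5, 49.1 and 51.1 CPM in the shRNF26 libraries and 47.0, 47.8 and 43.5 CPM in the shcontrol libraries. The groups do not overlap, but its log2 fold change of 0.10 did not pass (SE 0.059, edgeR adjusted p = 0.18), and it passed with total-count scaling (0.19, edgeR adjusted p = 0.012) and upper-quartile scaling (0.16, edgeR adjusted p = 0.039). POLR1C, shared with RNA polymerase III, had 0.10 and shares 18.2% of its exon bases with genes on the opposite strand, and POLR1E, a subunit of the initiation module, had 0.01 with a 95% interval from -0.10 to 0.12. POLR1D (ENSG00000186184), the other subunit shared with RNA polymerase III, had 58.9, 62.9 and 60.4 CPM in the shRNF26 libraries and 77.4, 70.6 and 78.1 CPM in the shcontrol libraries (edgeR log2 fold change -0.31, SE 0.056, adjusted p = 1.82e-04). TAF1D (ENSG00000166012), a subunit of the promoter selectivity factor SL1, fell by 0.23 on the log2 scale, to 192, 190 and 196 CPM in the shRNF26 libraries, against 209, 233 and 234 CPM in the shcontrol libraries (SE 0.046, edgeR adjusted p = 6.41e-04). TAF1D overlaps genes on both strands.

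RRN3 (ENSG00000085721), also called TIF-IA, couples RNA polymerase I to growth signals. It had 8, 18 and 16 counts in the shRNF26 libraries and 15, 52 and 24 counts in the shcontrol libraries, which overlap. The fitted log2 fold change of -1.20 (SE 0.42, adjusted p = 0.028 in edgeR) rested on shcontrol replicate 2: without it the value was -0.55 (edgeR adjusted p = 0.32). The call was also lost without shRNF26 replicate 1 (-0.93, edgeR adjusted p = 0.12) and with limma on log2(CPM + 1) (-0.60, adjusted p = 0.051). RRN3 has near-identical copies; RRN3P3 held 76, 74 and 68 counts in the shRNF26 libraries and 91, 90 and 78 in the shcontrol libraries, and RRN3P1 held 74, 66 and 71 counts in the shRNF26 libraries and 74, 72 and 72 in the shcontrol libraries. Its count is therefore uncertain.

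**Figure D3:**
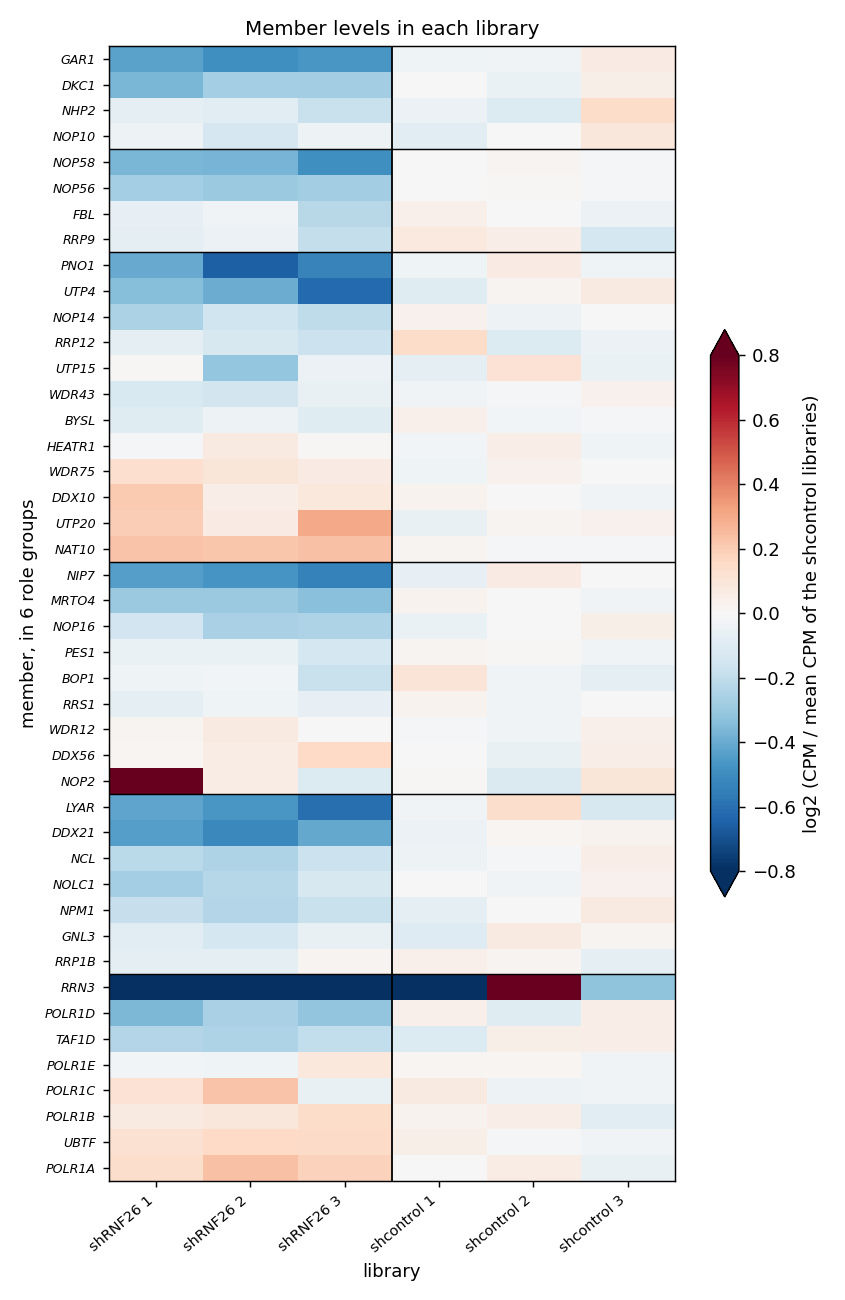
Level of each member (rows, in 6 role groups divided by lines) in each library (columns), as the log2 ratio to the mean CPM of the shcontrol libraries; the colour scale ends at -0.8 and 0.8. Rows of called genes such as GAR1, NIP7, DDX21 and NAT10 show 1 colour across the 3 shRNF26 libraries, and the rows of NOP2 and RRN3, with counts of 8 to 52, vary most between libraries of a group.

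Members with and without the E-box had near-equal shares of falls and near-equal medians. Of the 17 with CACGTG in the promoter window, 7 fell and 2 rose, with a median log2 fold change of -0.10, and of the 20 with a window but no E-box, 9 fell and 2 rose, with a median of -0.11. UTP20 and NAT10, both called higher, hold the same 6 letters as the falling genes PNO1, UTP4 and GAR1 in the sequences above. The letters CCGGAAG, or CTTCCGG on the other strand, a core of binding sites of ETS factors, were in the windows of 13 of the 37 members, or 35.1%, against 21.9% of the tested genes with a window. Of these 13, 7 fell and 0 rose (median -0.22), and of the 24 without them 9 fell and 4 rose (median -0.10). These splits were made with the fold changes known and were not tested. Their counts stand beside 22.6% lower and 18.9% higher among all tested genes.

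MYC, the E-box factor, had 2945, 3226 and 2792 counts in the shRNF26 libraries and 7812, 6726 and 6479 counts in the shcontrol libraries. In CPM this was 168 ± 6.69 in the shRNF26 libraries and 418 ± 28.0 in the shcontrol libraries (SD, n = 3 each), a log2 fold change of -1.32 (SE 0.048, adjusted p = 4.79e-14 in edgeR). Its partner MAX fell by 0.61 on the log2 scale, and the antagonist MXD1 fell by 2.02, while MXD3 rose by 0.73. Whether the level of MYC has a part in the levels of the members was not tested. Over the 11 tested genes of this network 5 fell, or 45.5%, and 1 rose, or 9.09%, against 22.6% and 18.9% of all tested genes.

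The members that rose had long transcripts, but this split by length was also made with the fold changes known. The 22 members with the shorter principal transcripts, up to the median of 2368 bases, included 10 that fell and 0 that rose. The 22 with longer transcripts included 8 that fell and all 4 that rose, NAT10, UBTF, UTP20 and POLR1A. These 4 are 18.2% of the longer members, below the 22.5% higher among all tested genes above this length. Rises were also commoner among long transcripts in general, with 23.7% of tested genes lower and 15.3% higher up to this length, and 25.1% lower and 22.5% higher above it. The median standard error of tested genes was 0.080 up to this length and 0.067 above it. Calls in either direction were 39.1% and 47.7%, so smaller differences could pass among the longer transcripts. Across the 44 members, Spearman's rho between log2 fold change and transcript length was 0.32, or 0.36 without NOP2 and RRN3, and across 12385 tested genes with a known length it was 0.056. This is a description across genes, which share the same 6 libraries and are not independent replicates, and the part of length in the changes was not tested.

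**Figure D4:**
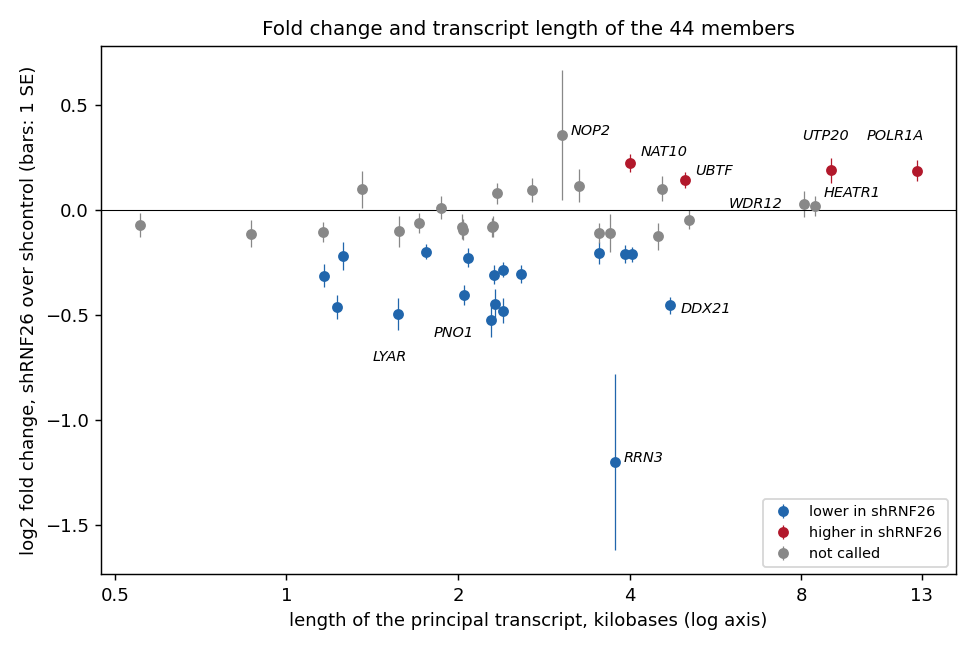
Log2 fold change (y axis, shRNF26 over shcontrol, bars 1 standard error) against the length of the principal transcript in kilobases (x axis, log scale) for the 44 members. The 4 red points, called higher, all lie above the median length of 2368 bases, while of the 18 blue points, called lower, 10 lie at or below it and 8 above, DDX21 among them.

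Some members also carry snoRNA genes within their own transcribed span. By GENCODE 29 these are DKC1, NOP56, NOP58, WDR43, NCL, GNL3 and TAF1D. Of these 7, 5 fell, or 71.4%, and 0 rose, with a median log2 fold change of -0.23. Of the other 37, 13 fell, or 35.1%, and 4 rose, or 10.8%, with a median of -0.08. Of all tested genes 22.6% were lower and 18.9% higher. The split by snoRNA genes was also made after the values were known, in few genes, and it was not tested.

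The other genes of the pathway were taken from 6 lists by function. Of 154 listed, 150 were tested, 53 fell, or 35.3%, and 10 rose, or 6.67%, against 22.6% and 18.9% of all tested genes, with a median log2 fold change of -0.09. These counts depended on the scaling. Under total-count scaling 24 of 150 were lower and 27 higher, against 15.4% and 30.1% of all tested genes. Under upper-quartile scaling 36 were lower and 19 higher, against 2681 and 3742 of all 14766 tested genes. Leaving out 1 library gave 40 to 50 lower, and 4 to 9 higher against 10 with all libraries; it was 4 without shcontrol replicate 2 or 3 and 5 without shRNF26 replicate 1 or 2. WDR46 and ZNHIT3 had 0 counts in every library, and AATF and POLR1H had at most 2, so these were not tested.

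Pre-60S factors had the highest share of falls among these lists. Of 49 tested, 24 fell, or 49.0%, and 3 rose, or 6.12%, against 22.6% and 18.9% of all tested genes. SBDS, which works in the release of EIF6 from new 60S subunits, had 764, 764 and 733 counts in the shRNF26 libraries and 1285, 1327 and 1225 counts in the shcontrol libraries (edgeR log2 fold change -0.85, SE 0.056, adjusted p = 4.79e-10). RSL24D1 fell by 0.43 on the log2 scale, PAK1IP1 by 0.42, and NMD3, the export adaptor of the 60S subunit, by 0.34. The 3 that rose were WDR18 (0.20), DDX54 (0.16) and MDN1 (0.12).

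Small-subunit factors outside the 44 showed 16 falls and 4 rises among 38 tested processome genes, and 5 falls and 0 rises among 14 pre-40S genes. The shares lower were 42.1% and 35.7%, against 22.6% of all tested genes. The shares higher were 10.5% and 0%, against 18.9%. NOL7 fell by 0.50, UTP25 by 0.39, ESF1 by 0.37 and UTP3 by 0.37 on the log2 scale. RIOK3, an atypical kinase, had 71.0 ± 1.17 CPM in the shRNF26 libraries and 122 ± 8.64 CPM in the shcontrol libraries (SD, n = 3 each), a fall of 0.78 on the log2 scale. Its relative RIOK1 fell by 0.50, LTV1 by 0.22 and TSR2 by 0.15.

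In the remaining lists most genes did not pass, and the shares called were near or below the 22.6% lower and 18.9% higher of all tested genes, except the lower calls for RNA polymerase III (28.6%). Of 24 genes of the nuclear exosome and RNase MRP, 5 fell, with the nuclease DIS3 (-0.32), EXOSC5 (-0.31), MPHOSPH6 (-0.30) and POP7 (-0.25) at the fore, and 1 rose, the exonuclease XRN2 (0.15, with overlapping groups). Of 9 tested genes of ribonucleoprotein assembly, ZNHIT6 fell (-0.30) and the Cajal body protein COIL rose (0.15). Of 16 other RNA polymerase I genes, POLR1G (-0.48) and the shared subunit POLR2K (-0.15) fell, and TAF1C, a partner of TAF1D in SL1, rose (0.21). For RNA polymerase III, 4 of 14 tested genes fell, POLR3F (-0.49), POLR3D (-0.47), CRCP (-0.44) and POLR3C (-0.36), and 1 rose.

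**Figure D5:**
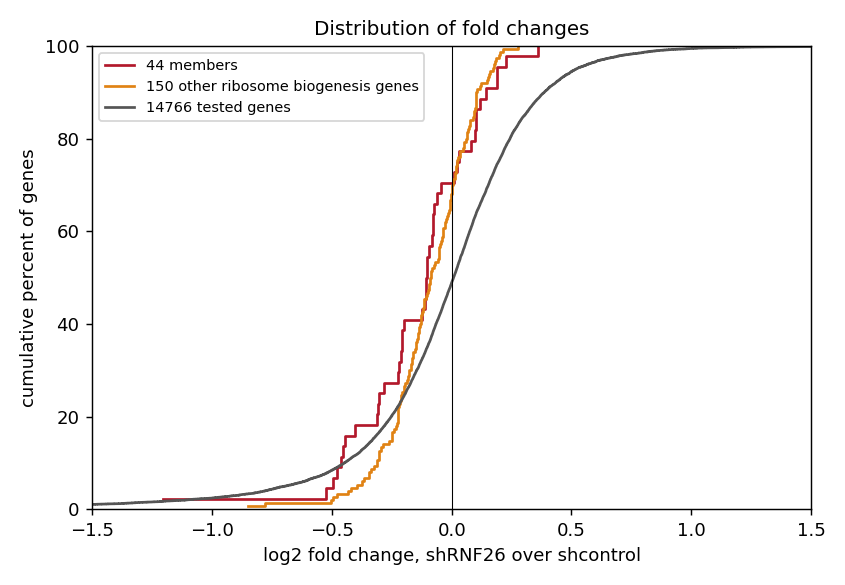
Cumulative percent of genes (y axis) at or below each log2 fold change (x axis, shRNF26 over shcontrol) for the 44 members, 150 other ribosome biogenesis genes and 14766 tested genes. Both biogenesis curves are steeper around 0 than that of all genes and meet the line at 0 above it, with medians of -0.10 and -0.09 against 0.01.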

How the data were processed

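The authors deposited 1 table of raw gene counts for 6 libraries; it is named for FPKM, but its values are whole numbers with unequal totals. Per the labels' protocols, libraries came from total RNA with a directional kit. Genome build hg19 is in the submitters' processing notes; the sources used here do not give the aligner, counter, annotation or strand setting. The table's 2 blank rows were left out (0% of counts). Symbols came from a gene name table for 61369 IDs.

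Counts were tested with edgeR 4.0.16 in R 4.3.3 (quasi-likelihood, two-sided, TMM scaling), shRNF26 against shcontrol, for genes with a mean of at least 1 CPM, with Benjamini-Hochberg adjustment over 14766 genes and a threshold of 0.05. Standard errors were derived from each log2 fold change and its F statistic (size of the change divided by root F); intervals are 1.96 standard errors either side. Levels are TMM-scaled CPM; 1 count is 0.0555 to 0.0599 CPM before that scaling, and precision at low counts is limited by counting error. Replicates differed by more than sampling noise (chi-square per degree of freedom 2.16 to 4.33). DESeq2 1.42.0 and limma 3.58.1 were alternatives. The test was checked on simulated counts.

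Exon overlaps, snoRNA genes and principal (APPRIS) transcript lengths came from GENCODE 29, promoters from RefSeq. Members and lists were chosen with earlier results of these data known. Given in full were RNF26, NPM1, NCL, FBL, DKC1, POLR1A, POLR1B, UBTF, RRN3 and up to 4 called members per role group with the largest change; up to 4 called genes were named per other list, and MYC. Some further genes were given full values after they were seen.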

Additional observations from a re-analysis of the deposited data

How the results depend on the processing

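Over 15 other settings, 15 of the 18 falls and 3 of the 4 rises among the members held under every setting that tested them, and 16 of the 22 others were called under none. The exceptions were NOP14, NOP16, RRN3 and UTP20, described for those genes, and FBL, WDR75, DDX10, DDX56, GNL3 and POLR1B, each called under at least 1 setting. Of all tested genes, 3332 were lower and 2785 higher with TMM, against 2269 lower and 4449 higher with total-count scaling and 2681 lower and 3742 higher with upper-quartile scaling. The median over all tested genes was 0.01 with TMM and 0.10 with total-count scaling, and the member median lay 0.11 below it under both. A change of scaling shifts all genes by nearly the same amount, so this gap was fixed in advance and is no check. Members called higher numbered 8 with total-count and 7 with upper-quartile scaling, against 4, and the member median was -0.014 and -0.051, against -0.10. Other biogenesis genes called lower numbered 24 with total-count scaling, and those called higher 27 with total-count and 19 with upper-quartile scaling. With total-count scaling NOP10 (0.0189), BYSL (0.0131), BOP1 (0.0139), PES1 (0.0104), RRS1 (0.0306) and RRP1B (0.0458) turned positive, and RRP1B (0.0083) with upper-quartile scaling; none of these was called. With 1 library left out, HEATR1 ranged from -0.0041 to 0.0475, NOP2 from -0.0214 to 0.5424 and POLR1E from -0.0265 to 0.0331, all uncalled; the negative values came without shRNF26 replicate 2 for HEATR1, shRNF26 replicate 1 for NOP2, and shRNF26 replicate 3 or shcontrol replicate 3 (-0.0071) for POLR1E. The cause was not tested. Leaving out 1 library gave 4959 to 5826 genes called, 17 to 19 members lower, 3 to 4 higher, a member median of -0.12 to -0.095, and 40 to 50 other biogenesis genes lower and 4 to 9 higher. The replicate numbers did not pair the libraries (correlations of same-numbered deviations -0.03 to 0.09); with the replicate block, 6414 genes, 19 members lower and 4 higher were called, and FBL passed (-0.10, edgeR adjusted p = 0.049). A minimum of 5 CPM left NOP2 and RRN3 untested. These are the 2 members with counts of 52 or fewer in every library.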
